A study of Mus musculus with 12 samples.

Results

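Male germ cells pass through 3 phases: spermatogonia divide by mitosis, spermatocytes recombine their chromosomes and divide by meiosis, and haploid spermatids are remodelled into sperm. The arrays of the type A and type B spermatogonia of the mouse, both mitotic cell types, were set here against those of the pachytene spermatocytes, which are in meiotic prophase, and the round spermatids, which are haploid. All 12 arrays of the series belong to this comparison: 1 array for each of the 4 cell types in each of the 3 Affymetrix designs U74Av2, U74Bv2 and U74Cv2, so that each side has 2 arrays in a design. Total RNA of isolated germ cells was labelled by the one-cycle method, and signals were made with MAS5. Each array was described as a singlet. How the cells were isolated, the age of the mice and their strain are not given in the labels.

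The 2 arrays of a side are different cell types, not replicates of a condition, and no library was repeated within a design. No spread between repeats of a cell type could therefore be measured, and with 2 arrays against 2 the smallest two-sided p-value of an exact permutation test is 0.333. Genes are described by their separation in place of a test. The gap of a gene is the ratio of the lowest signal on its higher side to the highest signal on the other side. A gene was counted as higher on a side where this gap was at least 2-fold, that is, where each of the 2 arrays of one side read at least 2-fold over each of the 2 of the other. Signals are in arbitrary units, each design was handled on its own, and a gene is represented by its brightest probe set. Signals under a floor of 50.01 to 50.03 units, by design, were raised to it before a ratio was taken. Where the reading that sets the lower side was at the floor, or did not exceed the highest negative control of its array (up to 103.5 units, on U74Cv2), the ratio is only a bound, written "at least". Of 15964 named genes, 13003 exceeded the floor in at least 1 cell type.

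It is well established that meiotic and haploid male germ cells transcribe a large set of testis-specific genes, many of them encoding parts of the acrosome and the sperm tail, and many being copies of genes that other tissues use. The X and Y chromosomes are transcriptionally silenced at the pachytene stage and are largely kept so in round spermatids. Mitotic spermatogonia depend on transcription factors such as Zbtb16 and on growth factor receptors such as Kit.

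In both spermatogonial types 1628 genes were at least 2-fold higher, which is 12.5% of the genes measured, and in both meiotic and haploid types 1173 were, which is 9.02%. At a gap of at least 4-fold the order was the other way: 311 genes (2.39%) were higher in spermatogonia and 577 (4.44%) in the meiotic and haploid cells. At 16-fold the counts were 7 and 165. The genes higher in spermatogonia had a median gap of 2.76-fold, with 10% of them over 5.22-fold, while those higher in meiotic and haploid cells had a median gap of 3.93-fold, with 10% over 23.9-fold. Bounds entered these figures at their value: the lower side was at the floor for 406 and 312 of these genes and not above the negative controls for a further 19 and 87. Of the remaining genes, 5121 had overlapping sides. The balance of the 2-fold counts rests on how arrays are scaled. Spermatogonial genes made up 58.1% of the counted genes here, 33.2% (836 against 1684) when each array was scaled to the common median of its design, and 41.0% (835 against 1203) when it was scaled to the bacterial spike-in controls. Of all genes, 6.47% were higher in spermatogonia and 13.0% in the later cells with median scaling, and 6.39% and 9.21% with spike-in scaling. They were 11.0% and 9.59% after quantile normalization and 10.1% and 9.47% with a floor of 0.8 of the trimmed mean. Counts of gene lists under these settings stand against these shares. The median difference over all genes, meiotic and haploid minus spermatogonial, was -0.22 on the log2 scale, and it lay at 0.12 after median scaling and at -0.05 after spike-in scaling.

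**Figure D1:**
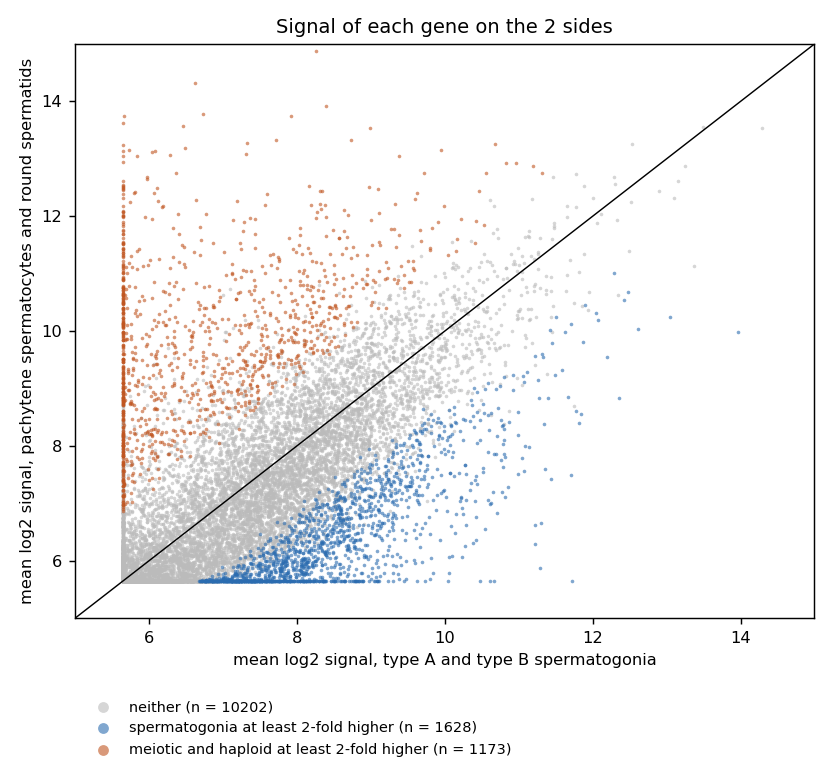
Mean log2 signal of each of the 13003 genes in the type A and type B spermatogonia (horizontal axis) and in the pachytene spermatocytes and round spermatids (vertical axis), with 1 point per gene and the diagonal marking equal signals. The 1628 genes at least 2-fold higher in spermatogonia lie in blue below the diagonal, and the 1173 at least 2-fold higher in the meiotic and haploid cells, in orange, reach farther from it.

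The cell type labels were set against known markers. The 4 measured markers of type A spermatogonia summed to 1280.3, 601, 211 and 245 units in type A, type B, pachytene and round spermatids, and the 4 of type B to 2131, 1404, 211 and 346, so that both sets read highest in the type A preparation. Kit belongs to both sets, so their sums are not independent. The 5 measured markers of pachytene spermatocytes summed to 930 units in type A and 886 in type B. They summed to 22526 in the pachytene preparation and to 23187 in round spermatids, so this set does not separate these 2 cell types. Most of both later sums came from 2 genes, Ldhc with 8691 and 10651 and Hspa2 with 12268 and 11485. Of the 5 markers, 3 were at least 2-fold higher in both later types. Markers of round spermatids summed to 415, 456, 2881 and 40099.7 in the order type A, type B, pachytene and round spermatid. Single defining markers were near the floor where they should be high: the synaptonemal complex gene Sycp3 read 60.4 in pachytene spermatocytes and the protamine gene Prm2 67.3 in round spermatids. The spermatid genes Prm1 and Tnp2 read 1321 and 492 in the pachytene preparation. Somatic cell markers differed between the sides too. Of 15 measured genes of myoid cells and fibroblasts, 10 were at least 2-fold higher in both spermatogonial preparations and 0 in the others, and their signals summed to 8521, 17013, 1055 and 1383 in type A, type B, pachytene and round spermatids. Of 14 Sertoli cell genes, 6 were higher in spermatogonia, with sums of 9506, 7499, 3878 and 1626. Of 8 Leydig cell genes, 0 were. Higher in spermatogonia were also 2 of 7 endothelial genes, 1 of 10 genes of macrophages and leukocytes and 1 of 3 erythroid genes. In each of these somatic lists 0 genes were higher in the later cells. Of all genes, 12.5% were higher in spermatogonia and 9.02% in the later cells. The Sertoli list had a median difference of -1.74 on the log2 scale. By a gap of any size, 11 of its genes were higher in spermatogonia and 1 in the later cells. Amh, also listed, was under the floor on all 4 arrays, while Sox9 read 775, 734, 409.8 and 394. The part of these cells in the genes that are higher in spermatogonia was not tested.

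Among the regulators of spermatogonia, 10 of 18 measured genes were at least 2-fold higher in both spermatogonial types and 1 was lower, against 12.5% and 9.02% of all genes. The median difference of this list was -1.30 on the log2 scale, meiotic and haploid minus spermatogonial. The count of 10 became 6 with median scaling, 5 with spike-in scaling and 7 with quantile normalization or a floor of 0.8 of the trimmed mean, and 3 of 10 genes with the second probe set of a gene. The share of all genes higher in spermatogonia fell too, to 6.47% with median scaling and 6.39% with spike-in scaling. It was 11.0% with quantile normalization, 10.1% with that floor and 8.64% with the second probe set. Zbtb16, a zinc finger factor that undifferentiated spermatogonia need, read 670.4 in type A and 268 in type B spermatogonia and was under the floor in the later cells, at 41.5 in pachytene spermatocytes and 39 in round spermatids. It was at least 5.36-fold higher in spermatogonia, and its probe set on another design gave the same call. Both spermatogonial arrays lay above both later ones, with type A the higher of the pair. Dmrt1, a DM-domain factor that holds back entry into meiosis, read 1195 in type A and 659 in type B spermatogonia, against 61.2 in pachytene spermatocytes and 129 in round spermatids, a gap of 5.11-fold. Stra8, which retinoic acid induces as spermatogonia approach meiosis, read 482 in type A and 493 in type B spermatogonia, and 17.2 in pachytene spermatocytes and 88.9 in round spermatids, a gap of 5.42-fold. Its spermatogonial signals were nearly equal. The RNA-binding protein gene Dazl had a gap of 3.01-fold, the forkhead factor gene Foxo1 one of at least 3.91-fold, and Lin28a, which blocks let-7 maturation, one of at least 2.56-fold. For Foxo1 the direction turned under median scaling, which selected another probe set. Ddx4, the germ cell RNA helicase also called Vasa, went the other way: it read 609.6 in type A and 370.2 in type B spermatogonia and 1811 in pachytene spermatocytes and 1656 in round spermatids, a gap of 2.72-fold.

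Of the surface receptors and adhesion molecules of spermatogonia, 5 of 13 measured were higher in spermatogonia and 0 in the later cells. The shares of all genes were 12.5% and 9.02%. The 5 became 3 with median or spike-in scaling, where 6.47% and 6.39% of all genes were higher in spermatogonia. Without the type B arrays they became 8, against 18.5% of all genes. Igf1r, the receptor for insulin-like growth factor 1, read 2454 in type A and 1140.3 in type B spermatogonia, and 225 in pachytene spermatocytes and 57.1 in round spermatids. The gap was 5.06-fold, the signal was highest in type A, and it was lowest in round spermatids. Mcam, an adhesion molecule, showed a gap of 5.29-fold and the beta 1 integrin gene Itgb1 one of 4.94-fold. The stem cell factor receptor gene Kit read 385, 202, 40.6 and 77.9 in the order type A, type B, pachytene and round spermatid, a gap of 2.59-fold. Under median and spike-in scaling the gaps of Kit and Cd9 were under 2-fold. Gfra1, a receptor of undifferentiated spermatogonia, read 136, 61.9, 50.6 and 66.9 in the same order, and its sides overlapped.

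Genes of DNA replication were higher in spermatogonia in 12 of 46 measured cases and higher in the later cells in 2. These are 26.1% and 4.35%, against 12.5% and 9.02% of all genes. With median scaling the counts were 6 and 5, with spike-in scaling 5 and 1, and with the higher floor 8 and 2 of 41. The shares of all genes were then 6.47% and 13.0%, 6.39% and 9.21%, and 10.1% and 9.47%. The median difference of the list was -0.60, against -0.22 over all genes. With median scaling it was -0.22, against 0.12 over all genes, and with spike-in scaling -0.41, against -0.05. The catalytic subunit gene of DNA polymerase delta, Pold1, read 695 in type A and 507 in type B spermatogonia and 81.4 in pachytene spermatocytes and 58 in round spermatids, which is a gap of 6.23-fold, under 2-fold with spike-in scaling. Of the helicase that unwinds origins, Mcm2 read 572 in type A and 406 in type B spermatogonia against 50.2 in pachytene spermatocytes and 88.7 in round spermatids, a gap of 4.57-fold. Mcm3 had a gap of 3.64-fold, Mcm4 one of 3.4-fold, and the origin recognition gene Orc6 one of 3.1-fold. Type A and type B signals of these genes lay close to each other, and none of the later arrays reached them. The 2 exceptions were Rpa1, which codes for the large subunit of the single-strand binding protein that also coats recombination intermediates, with 346, 297, 1506 and 849 on the 4 arrays, and the clamp loader gene Rfc2, with 269, 277, 613 and 792.

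Of the genes of mitosis, 3 of 34 were higher in spermatogonia and 3 in the later cells. This is 8.82% on each side, under the 12.5% of all genes in spermatogonia and near the 9.02% in the later cells. With median scaling the counts were 2 and 6 and with spike-in scaling 2 and 1. The list had a median difference of -0.19 that turned to 0.34 with median scaling and to 0.16 with spike-in scaling. The median over all genes moved from -0.22 to 0.12 and -0.05. The proliferation marker Mki67 read 421 in type A and 215 in type B spermatogonia and 41.4 in pachytene spermatocytes and 53.1 in round spermatids, a gap of 4.05-fold, and Cks1b, a subunit of cyclin-dependent kinases, had a gap of 6.46-fold. Aurka, the spindle kinase Aurora A, was on the other side, with 181 in type A and 126 in type B spermatogonia and 1068 in pachytene spermatocytes and 931 in round spermatids, a gap of 5.14-fold. Of the genes of cell cycle control, 4 of 24 were higher in spermatogonia and 3 in the later cells. These are 16.7% and 12.5%, near the 12.5% and 9.02% of all genes. The counts were 1 and 5 with median scaling, 2 and 2 with spike-in scaling, and 1 and 3 of 23 with the higher floor. The S phase factor gene E2f3 had a gap of at least 3.91-fold towards spermatogonia. Ccna1, the germ cell A-type cyclin needed for the meiotic divisions, read 3.4 in type A and 2.2 in type B spermatogonia against 405 in pachytene spermatocytes and 806 in round spermatids, a gap of at least 8.09-fold, and the kinase inhibitor gene Cdkn2c was 2.85-fold higher in the later cells.

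Chromatin regulators were higher in spermatogonia in 5 of 20 cases and in the later cells in 0, against 12.5% and 9.02% of all genes. The counts were 3 and 1 with median scaling and 3 and 0 with spike-in scaling. The de novo DNA methyltransferase genes Dnmt3a and Dnmt3b had gaps of 6.38-fold and at least 3.09-fold, and Hells, a remodeller that DNA methylation requires, one of 6.27-fold. Neither of the 2 other probe sets of Dnmt3a had a 2-fold gap. Dnmt3a read 397 in type A and 345 in type B spermatogonia and 34.9 in pachytene spermatocytes and 54.1 in round spermatids, and Hells 772 in type A and 645 in type B spermatogonia and 66.4 in pachytene spermatocytes and 103 in round spermatids. Hdac2 and Suz12 had gaps of 2.2-fold and 2.37-fold, which were under 2-fold with median and spike-in scaling. Listed ribosomal protein genes were higher in spermatogonia in 7 of 28 cases and in the later cells in 0. The shares of all genes were 12.5% and 9.02%. The 7 became 3 with median scaling, 5 with spike-in scaling and 10 after quantile normalization. The shares of all genes were then 6.47%, 6.39% and 11.0%. The median difference was -0.89, -0.51 with median scaling and -0.56 with spike-in scaling, against -0.22, 0.12 and -0.05 over all genes. Rps19 read 3207 in type A and 3314 in type B spermatogonia against 346 in pachytene spermatocytes and 613 in round spermatids, a gap of 5.23-fold. The largest gap of the list belonged to the X-linked Rps4x, with 12.8-fold, but another probe set of that gene had the opposite sign. In sterol synthesis 5 of 15 genes were higher in spermatogonia and 1 in the later cells, against 12.5% and 9.02% of all genes. The 5 became 3 with spike-in scaling. Among the 5 were the feedback regulator gene Insig1 with at least 4.37-fold and the synthase gene Hmgcs1 with 3.49-fold. Fdft1, squalene synthase, was 3-fold higher in the later cells, with 239.5, 265, 795 and 1994 on the 4 arrays.

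Large gaps towards spermatogonia, several of them bounds, were found for single genes outside the lists. Prss35, a secreted protein related to serine proteases, read 3010.1 in type A and 3777 in type B spermatogonia against 43.1 in pachytene spermatocytes and 4.3 in round spermatids, which is at least 60.2-fold. The collagen genes Col1a1, Col1a2, Col3a1 and Col5a1 had gaps of at least 23.8-fold, at least 22.5-fold, at least 14.2-fold and at least 11.7-fold, all with both later arrays under the floor. Another probe set of Col1a2 had the opposite sign, by a small gap. Col1a1 read 1192 in type A and 2054 in type B spermatogonia, so that its type B signal was the higher of the pair. Among genes over the floor on all 4 arrays, the elastin gene Eln had a gap of 10.9-fold and the guidance ligand gene Slit3 one of 15.4-fold. Of the immediate early genes, Egr1 read 2791 in type A and 2768 in type B spermatogonia and 186 in pachytene spermatocytes and 159.6 in round spermatids, a gap of 14.9-fold, and the orphan receptor gene Nr4a1 had a gap of 9.06-fold. Gadd45b, a stress-induced gene, had one of 9.63-fold. The other probe sets of Nr4a1 and Eln had gaps of only 1.12-fold and 1.56-fold. Col1a1, Col1a2 and Col3a1 are among the myoid and fibroblast markers whose sums are given above.

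In 7 genes, every probe set on at least 2 designs separated spermatogonia from the later cells by at least 4-fold. By the smallest gap of their probe sets, the leading 5 were Arap1, Zbtb16, Plpp3, Maged2 and Jak1. Jak1, the kinase that serves many cytokine receptors, read 941, 833, 181 and 64.5 in the order type A, type B, pachytene and round spermatid. The phosphatase Plpp3, which acts on lipid phosphates, read 1062, 1612, 123 and 220.0, and Arap1 803, 1056, 61.2 and 44.9. In the other direction 21 genes met this rule.

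**Figure D2:**
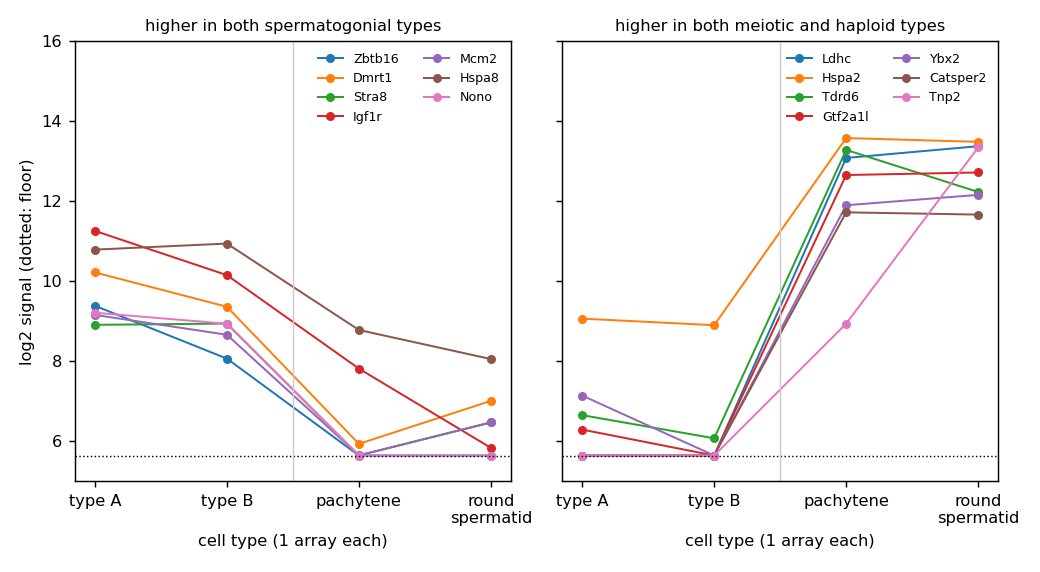
Log2 signal of 7 genes higher in both spermatogonial types (left) and 7 higher in both meiotic and haploid types (right), with 1 point per array in the order type A, type B, pachytene and round spermatid, and the floor as a dotted line. The vertical line parts the spermatogonial from the later arrays, and the genes shown all met the 2-fold rule. Tnp2 is the gene in the right panel with the largest step from pachytene spermatocytes to round spermatids.

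Parts of the sperm tail formed the group with the highest share on the meiotic and haploid side. Of 25 measured tail genes, 22 were at least 2-fold higher in both later cell types, 19 of them by at least 4-fold, and 0 were higher in spermatogonia. Their median difference was 4.58 on the log2 scale. For this list and those that follow, the shares of all genes were 9.02% in the later cells and 12.5% in spermatogonia. Catsper2, a subunit of the sperm calcium channel, read 22.6 in type A and 28.6 in type B spermatogonia and 3386 in pachytene spermatocytes and 3255 in round spermatids, a gap of at least 65.1-fold. Spag6l, a protein of the central pair of the axoneme, read 19, 96.4, 6609 and 3670.1 in the order type A, type B, pachytene and round spermatid, a gap of at least 38.1-fold. Odf2, of the outer dense fibres, read 46.3, 53.2, 1359 and 3628, a gap of 25.5-fold, and the dynein light chain gene Dnali1 one of at least 24.2-fold. These genes were already high in the pachytene preparation. Neither of the 2 other probe sets of Odf2 had a 2-fold gap. Other tail genes were high mainly in round spermatids: Odf1 read 363 in pachytene spermatocytes and 6118 in round spermatids, and Ropn1, which binds the kinase anchors of the tail, 271 and 9143.

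The acrosome is the vesicle over the sperm nucleus that opens at fertilisation. Of 22 measured genes of the acrosome and of egg binding, 13 were higher in the meiotic and haploid cells and 1 in spermatogonia, and the median difference was 3.50. Zpbp2, which helps to shape the acrosome, read 100.01 in type A and 112 in type B spermatogonia against 14729 in pachytene spermatocytes and 13343 in round spermatids, a gap of 119-fold. Dkkl1 read 14.9 in type A and 10.1 in type B spermatogonia, both under the floor, and 7557 in pachytene spermatocytes and 9599 in round spermatids, which is at least 151-fold. Acr, the gene of the protease acrosin, had a gap of at least 37.5-fold, and the membrane protein gene Adam5 one of at least 70.6-fold. The other probe set of Acr had a gap of 1.22-fold, and 1 of the 2 others of Adam5 had one of 1.36-fold. Clgn, the chaperone calmegin that folds egg-binding proteins, read 59.6, 60.6, 1560.4 and 1558, so that neither the spermatogonial nor the later arrays differed much among themselves. Spaca4 was the exception, with 178, 152, 34.6 and 45.5.

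The chromatoid body is the RNA granule of spermatids that shares components with the piRNA pathway. Of 10 measured genes, 6 were higher in the later cells and 0 in spermatogonia, with a median difference of 2.27. The Tudor protein gene Tdrd6, a scaffold of this granule, read 101 in type A and 67.4 in type B spermatogonia and 9996 in pachytene spermatocytes and 4819 in round spermatids, a gap of 47.9-fold, with the higher of the later signals in pachytene spermatocytes. The RNA helicase gene Ddx25 had a gap of 15.3-fold, Mael one of at least 6.82-fold and Gtsf1 one of 3.92-fold. Tdrd7 had a gap of 9.63-fold, but its other probe set had the opposite sign, by a small gap. Mov10l1, the helicase that starts piRNA processing, read 4879.7, 2829, 1894 and 1021 and was thus highest in type A spermatogonia, though by a gap under 2-fold.

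Of the transcription factors of meiosis and spermatids, 5 of 13 were higher in the later cells and 0 in spermatogonia. Gtf2a1l, the germ cell form of the general factor TFIIA, read 78.4 in type A and 31.6 in type B spermatogonia and 6464 in pachytene spermatocytes and 6755 in round spermatids, a gap of 82.4-fold. Tbpl1, which replaces the TATA-binding protein at many spermatid promoters, had a gap of 12.9-fold, the bromodomain gene Brdt one of 15.4-fold, and Rfx2, a factor that drives genes of cilia and flagella, one of at least 19-fold. The other probe set of Brdt had a gap of 1.43-fold, and neither of the 2 others of Tbpl1 had a 2-fold gap. Mybl1, the factor also called A-MYB and known as a driver of pachytene transcription, read 244, 257, 1102 and 194: it was high in pachytene spermatocytes alone, and its sides overlapped. Among proteins that bind and store mRNA, 7 of 19 genes were higher in the later cells and 2 in spermatogonia, the latter 0 with median or spike-in scaling. Without the round spermatid arrays 14 of 19 were higher in the later cells, against 13.8% of all genes. Ybx2, also called MSY2, a store-keeper of spermatid mRNA, read 141 in type A and 45.5 in type B spermatogonia and 3829 in pachytene spermatocytes and 4583 in round spermatids, a gap of 27.1-fold, and its relative Ybx3 had one of 21-fold. The testis poly(A) polymerase gene Papolb had a gap of at least 11.6-fold. The poly(A)-binding protein gene Pabpc1 had one of 3.27-fold, with another probe set of the opposite sign.

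Of the sperm chromatin proteins, which replace histones late in spermatid life, 3 of 11 met the 2-fold rule, all on the meiotic and haploid side, though the median difference was 2.50. Both values rest on the cell type used: without the pachytene arrays 9 of 11 met the rule on that side, with a median difference of 4.29, and without the round spermatid arrays 3 of 8 did, with one of 0.81. The shares of all genes on that side were then 14.7% and 13.8%. Tnp2, a transition protein gene, read 19.8 in type A and 34.7 in type B spermatogonia, then 492 in pachytene spermatocytes and 10430.5 in round spermatids, a gap of at least 9.83-fold. Prm1, protamine 1, read 2.5 in type A and 5.7 in type B spermatogonia, then 1321 in pachytene spermatocytes and 14319.9 in round spermatids, a gap of at least 26.4-fold, and its other probe set had the opposite sign. The linker histone genes H1f7 and Hils1 read 1589.8 and 2193 in round spermatids but 6.4 and 63.5 in pachytene spermatocytes, and so did not separate the sides by 2-fold. Of the kinases and phosphatases typical of testis, 9 of 15 were higher in the later cells and 2 in spermatogonia. The shares of all genes were 9.02% and 12.5%. Stk33 had a gap of at least 15.3-fold, the ciliary kinase gene Mak one of 6.82-fold, and Tssk6, needed for sperm chromatin condensation, read 45.6, 39, 340.1 and 6032, a gap of at least 6.8-fold.

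Genes of recombination and synapsis did not stand on one side: 2 of 20 were higher in the later cells, 1 in spermatogonia, against 9.02% and 12.5% of all genes. The median difference was -0.07, turning to 0.33 with median scaling and to 0.27 with spike-in scaling. The median over all genes was -0.22, 0.12 and -0.05 in these settings. Psmc3ip, also called Hop2, a partner of the meiotic recombinase, read 32.3 in type A and 56.2 in type B spermatogonia and 568 in pachytene spermatocytes and 445 in round spermatids, a gap of 7.91-fold, and Syce1, of the synaptonemal complex, had one of 3.21-fold, under 2-fold after quantile normalization. Trip13, which removes HORMA proteins from synapsed axes, was 2.46-fold higher in spermatogonia and under 2-fold with median, spike-in and quantile scaling. Spo11, which makes the breaks that start recombination, read 997, 679, 4109 and 1559, and Stag3, the meiotic cohesin gene, 5977, 5855, 12714 and 7556. Both were already well over the floor in spermatogonia. Of 64 genes of the respiratory chain, 7 were higher in the later cells and 2 in spermatogonia, against 9.02% and 12.5% of all genes. With median scaling 13 were higher in the later cells, with spike-in scaling 10, and after quantile normalization 4. The shares of all genes on that side were then 13.0%, 9.21% and 9.59%. The 2 respiratory chain genes with the largest gaps are the testis forms Cox8c, with 28.8-fold, and Cox6b2, with 22.7-fold. Of the 2 other probe sets of Cox6b2, 1 gave the same call and 1 had the opposite sign.

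**Figure D3:**
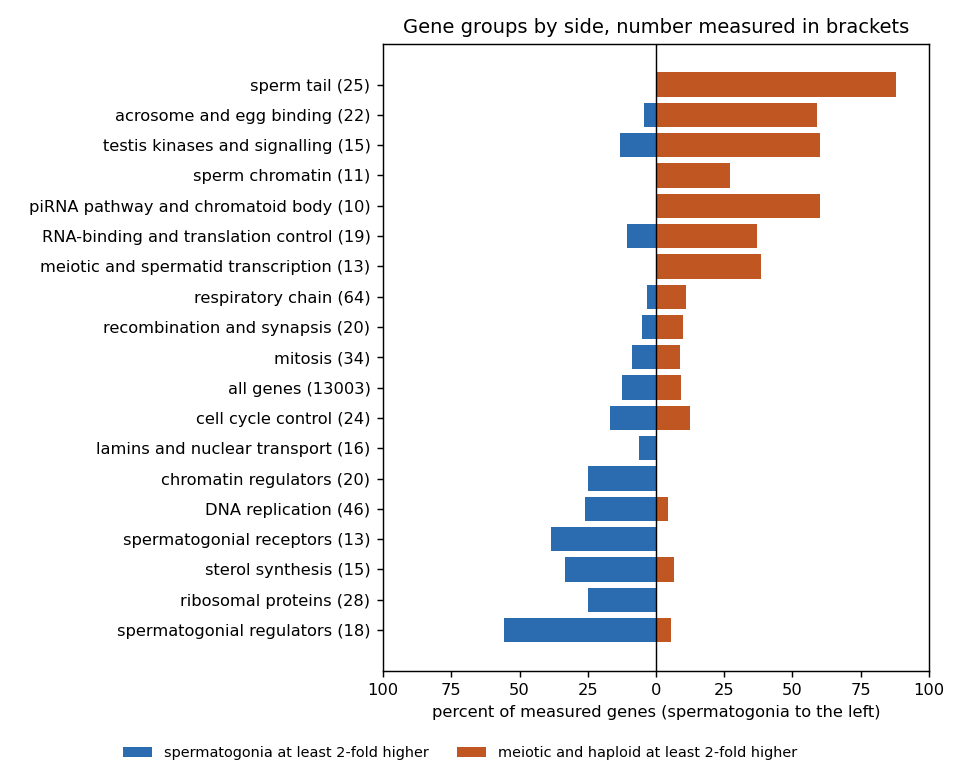
Percent of the measured genes of each group that were at least 2-fold higher in spermatogonia (blue, to the left) or in the meiotic and haploid cells (orange, to the right), ordered by the median difference, with all 13003 genes for comparison. Sperm tail genes reach 88.0% on the right and spermatogonial regulators 55.6% on the left, against 9.02% and 12.5% of all genes.

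Most gaps over 16-fold were on the meiotic and haploid side, and many of the largest are bounds, which have no order. Pebp4 read 50.8 in type A and 38.1 in type B spermatogonia and 16174 in pachytene spermatocytes and 11787 in round spermatids, a gap of at least 232-fold. Ldhal6b, which codes for a lactate dehydrogenase, read 10.4 in type A and 15.2 in type B spermatogonia, both under the floor, and 15379.6 in pachytene spermatocytes and 10423 in round spermatids, a gap of at least 208-fold. Fbp1, the gluconeogenic fructose bisphosphatase, had one of at least 113-fold. Among genes over the floor on all 4 arrays, Rbakdn had a gap of 189-fold, Plaat5, a phospholipid acyltransferase gene, one of at least 114-fold, and Ube2d2b, a ubiquitin-conjugating enzyme gene, one of at least 96.1-fold. The type B readings of Plaat5 and Ube2d2b, 68.4 and 95.9, were not above the highest negative control of that array. Fhl4, a LIM-domain protein gene, read 291 in type A and 319.8 in type B spermatogonia and 29895 in pachytene spermatocytes and 30314 in round spermatids, a gap of 93.5-fold, and its probe sets on 2 designs gave the same call. The dynein assembly factor gene Dnaaf1 did so too, with a gap of 42-fold.

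The cell types of a side were also set against each other. Of the 1628 genes higher in spermatogonia, 93.7% read within 2-fold of each other in type A and type B. Of the 1173 genes higher in the later cells, 74.3% read within 2-fold in pachytene spermatocytes and round spermatids, 200 were at least 2-fold higher in round spermatids and 102 at least 2-fold higher in pachytene spermatocytes. Over all 13003 genes, 92.8% were within 2-fold between type A and type B and 79.1% between pachytene spermatocytes and round spermatids. Few genes held level over all 4 cell types: of 7920 genes over the floor on every array, 600, or 7.58%, stayed within a log2 range of 0.5.

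Several enzymes and structural proteins have a broadly expressed gene and a related gene restricted to, or enriched in, the germ line. Of 34 such pairs listed, 21 had both genes over the floor. The germ cell gene was at least 2-fold higher in the meiotic and haploid cells in 15 of the 21 and higher in spermatogonia in 0. The broad gene was at least 2-fold higher in spermatogonia in 9 and in the later cells in 3. Of all genes, 12.5% were higher in spermatogonia and 9.02% in the later cells. In all 21 pairs the difference between sides, meiotic and haploid minus spermatogonial, was larger for the germ cell gene, though in Rbmx and Rbmxl2 both were near 0, at -0.13 and -0.10 on the log2 scale. In 5 pairs the 2 genes were separated by at least 2-fold in opposite directions.

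The 5 pairs with opposite gaps were Pgk1 and Pgk2, Pdha1 and Pdha2, Prps1 and Prps1l1, Hspa8 and Hspa2, and Ppp3r1 and Ppp3r2. Pgk1 and Pgk2 code for phosphoglycerate kinase of glycolysis. Pgk1 read 173, 158, 43.9 and 60.1 in the order type A, type B, pachytene and round spermatid, and Pgk2 11.9, 3.8, 333 and 2507. Their gaps were 2.63-fold towards spermatogonia and at least 6.66-fold towards the later cells. Pdha1 and Pdha2, subunits of pyruvate dehydrogenase, had gaps of at least 3.24-fold and 17.5-fold in these directions, and Prps1 and Prps1l1, which make the precursor of nucleotides, 2.09-fold and 93.7-fold. The heat shock chaperone gene Hspa8 read 1774, 1971, 441 and 266, a gap of 4.03-fold, and its germ cell relative Hspa2 536, 479, 12268 and 11485, a gap of 21.4-fold. Ppp3r1 and Ppp3r2, regulatory subunits of calcineurin, had gaps of 3.15-fold and 24.3-fold. The gaps of Pgk1 and Prps1 were under 2-fold with median and spike-in scaling, that of Prps1 also after quantile normalization and that of Ppp3r1 with spike-in scaling, and another probe set of Ppp3r2 had the opposite sign.

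In 3 pairs both genes were higher in the later cells: Ldha and Ldhc with gaps of 10.2-fold and at least 174-fold, Ybx1 and Ybx2 with 2.77-fold and 27.1-fold, and Tbp and Tbpl1 with 3.5-fold and 12.9-fold. Ldhc, the sperm lactate dehydrogenase gene, read 2.9 in type A and 1.7 in type B spermatogonia, far under the floor, and 8691 in pachytene spermatocytes and 10651 in round spermatids. Of the cohesin pairs, Rad21 was 4.54-fold higher in spermatogonia while the sides of Rec8 overlapped at 1127, 979, 443 and 1908. Counting every listed gene over the floor, 9 of the broad genes lie on the X chromosome, and 6 of these were higher in spermatogonia and 0 in the later cells. Of 18 broad genes elsewhere, 5 were higher in spermatogonia and 3 in the later cells. The shares of all measured genes, in the same order, were 33.0% and 0.254% on the X chromosome and 11.9% and 9.31% on the autosomes. All 27 germ cell genes over the floor lie on autosomes, and 18 of them were higher in the later cells.

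**Figure D4:**
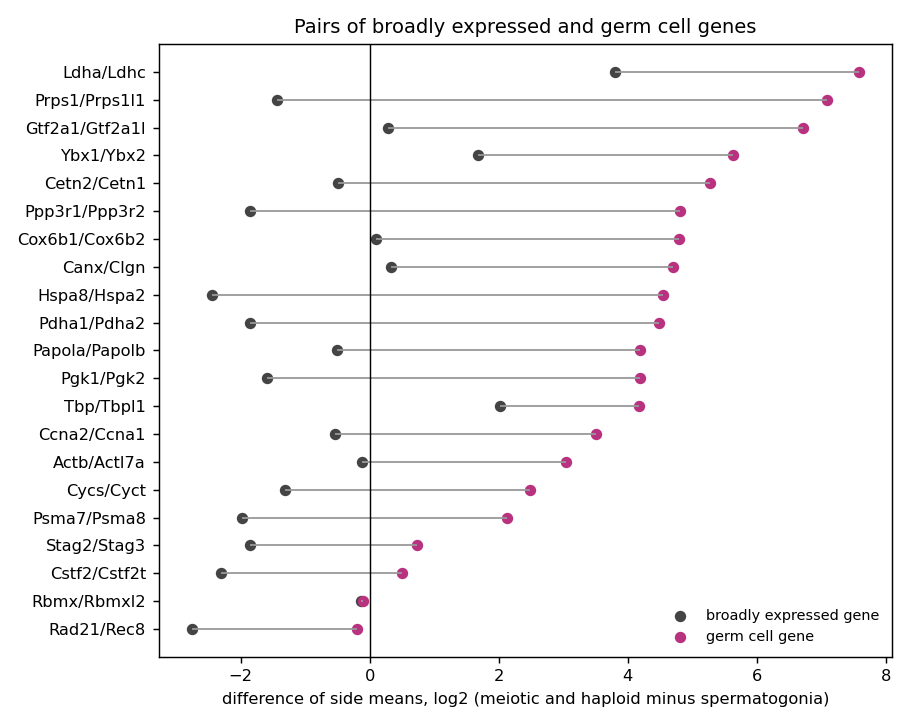
Difference of side means on the log2 scale, meiotic and haploid minus spermatogonial, for the broadly expressed gene (grey) and the germ cell gene (magenta) of each of the 21 pairs with both genes over the floor. In all 21 the magenta point lies to the right, by the least for Rbmx and Rbmxl2.

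The X chromosome lay outside the range of the autosomes on both counts when all 4 cell types were used. Of 394 X-linked genes measured, 130, or 33.0%, were at least 2-fold higher in both spermatogonial types, and 1, or 0.254%, was higher in both later types. Over the 19 autosomes the shares ran from 9.92% to 15.1% in the first direction and from 7.43% to 11.2% in the second. With median scaling, 19.7% of X-linked and 6.08% of autosomal genes were higher in spermatogonia, and with spike-in scaling 20.8% and 5.96%. The low share on the later side depends on the pachytene arrays: without them, 25 of 391 X-linked genes (6.39%) were higher in round spermatids than in both spermatogonial types, against 15.0% of autosomal genes, while without the round spermatid arrays 0.526% and 14.3% were higher in pachytene spermatocytes. The median log2 signal of X-linked genes was 7.28 in type A, 7.23 in type B, 5.70 in pachytene spermatocytes and 6.0 in round spermatids, while the autosomal median was 7.29, 7.30, 7.05 and 6.95. In pachytene spermatocytes 48.7% of the X-linked genes were at the floor and in round spermatids 42.4%, against 14.7% and 9.90% in type A and type B. The corresponding autosomal shares were 21.7% in both later types, 15.7% in type A and 13.3% in type B.

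Of the X-linked genes, Bgn had a gap of at least 17-fold, with 851, 2362, 12.9 and 17.9 in the order type A, type B, pachytene and round spermatid. It codes for biglycan, a proteoglycan of the extracellular matrix, and is one of the myoid and fibroblast markers. Rps4x, given above, had 12.8-fold. Nono, an RNA-binding protein gene, read 594 in type A and 491 in type B spermatogonia and was under the floor in the later cells, at 47.4 in pachytene spermatocytes and 33.6 in round spermatids, a gap of at least 9.81-fold. The histone-binding protein gene Rbbp7 read 1777, 1752, 268 and 256 in the order type A, type B, pachytene and round spermatid, a gap of 6.54-fold, and the chromatin protein gene Hmgb3 2087, 1549.6, 239 and 211, a gap of 6.47-fold. Lamp2, of the lysosome membrane, had a gap of 8.14-fold, Aifm1, of the mitochondrion, one of 5.85-fold, and the RNA helicase gene Ddx3x one of 5.02-fold. Maged2 read 599.6, 756, 90.2 and 33.9, a gap of 6.65-fold. Usp26, a deubiquitinase gene expressed in testis, was also on the spermatogonial side, with 1723, 1111, 109.8 and 238 and a gap of 4.67-fold. Of the 130 genes, 40 were under the floor in both later types. Round spermatids read at least 2-fold over pachytene spermatocytes in 10 of the 130 genes, and pachytene spermatocytes over round spermatids in 8. Of the 1492 autosomal genes higher in spermatogonia, 28 and 122 did so. Whether these shares differ was not tested.

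The single X-linked gene higher in both later types was Tsga8, which codes for a protein of haploid germ cells. It read 33 in type A and 20.4 in type B spermatogonia, both under the floor, then 498 in pachytene spermatocytes and 17452 in round spermatids, a gap of at least 9.95-fold, and most of its signal was in round spermatids. The spermatid genes Tnp2 and Prm1 read 492 and 1321 in the pachytene preparation, and 10430.5 and 14319.9 in round spermatids. The source of the pachytene signal of Tsga8 was not tested. Akap4, the X-linked gene of the main protein of the fibrous sheath, read 91.2 in pachytene spermatocytes and 2631 in round spermatids and missed the rule, with at least 1.82-fold. It is named here after its values were seen. On the Y chromosome 4 genes were measured, and Kdm5d and Uba1y were the 2 that were higher in spermatogonia, with gaps of at least 2.18-fold and 2.27-fold.

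**Figure D5:**
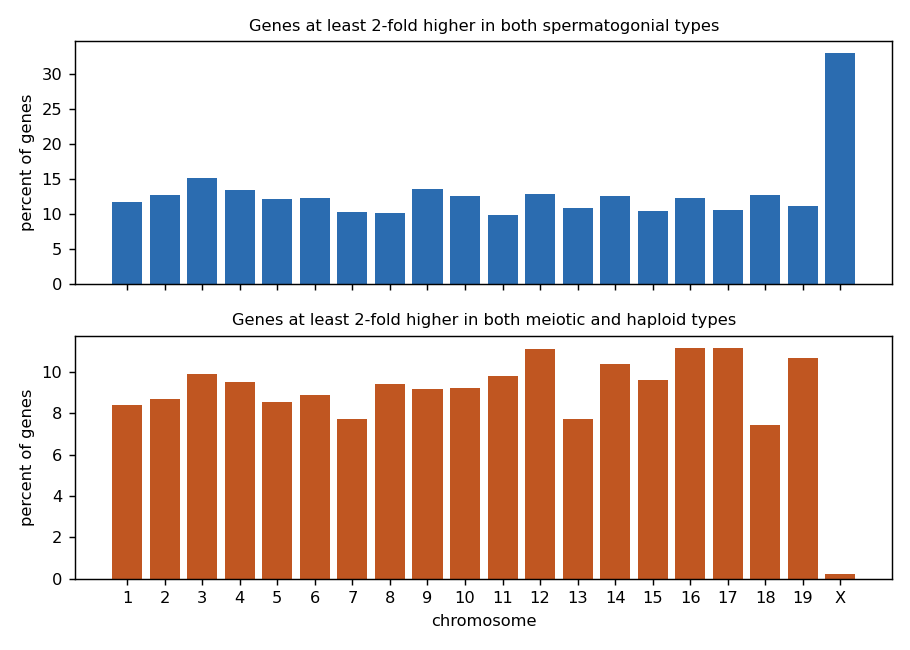
Percent of the measured genes of each autosome and of the X chromosome that were at least 2-fold higher in both spermatogonial types (top) and in both meiotic and haploid types (bottom). The X bar is the highest of the top panel, at 33.0%, and the lowest of the bottom panel, at 0.254%.

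Promoter sequences were searched for short motifs of factors known in the germ line: the MYB core TAACTG or CAACTG, the cyclic AMP response element TGACGTCA, an RFX element GTTGCCATG, E2F sites TTTGGCGC or TTTCCCGC, the CCAAT box and the GC box GGGCGG. Both strands were read over 250 bases before to 50 bases after the first listed start site in RefSeq (GRCm38.p6), which matched 10387 of the 13003 genes. A match is a description of the letters and not of binding. The MYB core was in 17.0% of all these promoters, in 12.9% of those of genes at least 2-fold higher in spermatogonia and in 22.5% of those higher in the later cells. It was in 25.6% of the later group at 4-fold and in 35.9% at 16-fold, where 131 promoters matched. In the 100 bases before the start site the shares were 5.03% of all, 3.36% of the spermatogonial genes, 7.82% of the later genes and 10.2% of the later genes at 4-fold. In the 100 bases farthest from it in the window before the start they were 6.64%, 4.71%, 8.23% and 7.69%.

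The base composition of the promoters moved with the groups. The GC box was in 61.1% of all promoters, 73.1% of the spermatogonial and 54.1% of the later group, and the median GC content was 60.3%, 63.3% and 59.0%. Promoters were also divided into 3 equal groups by their ratio of observed to expected CpG. From the lowest to the highest of these, the MYB core was in 25.9%, 14.8% and 10.4% of all promoters, in 23.0%, 12.04% and 7.21% of the spermatogonial ones and in 33.5%, 19.6% and 14.5% of the later ones. The order of all, spermatogonial and later promoters was the same in each group. In the later promoters at 4-fold the shares were 39.2%, 19.0% and 14.5%, above those at 2-fold only in the lowest group. The median CpG ratio of the later promoters was 0.745 at 2-fold, 0.704 at 4-fold and 0.617 at 16-fold. The part of base composition in these shares was not tested. The cyclic AMP response element was in 2.93%, 3.14% and 2.88% of all, spermatogonial and later promoters, the RFX element in 0.712%, 0.448% and 1.54%, the E2F sites in 2.83%, 3.44% and 2.06%, and the CCAAT box in 38.9%, 38.7% and 40.9%. The shares for the last 4 motifs rest on 6 to 518 promoters in the 2 sets.

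The 250 bases before the start site of 4 of the genes with large gaps towards the later cells show where the MYB core lies. They are Ldhal6b, Ldhc, Zpbp2 and Catsper2, chosen because the core is near the start site, and are written 5′ to 3′ on the strand of the gene, with the core (on either strand) in capitals and the position of its 5′ base counted back from the start site. Coordinates and sequences are those of RefSeq on GRCm38.p6.
Ldhal6b, chr17:5418768-5419017 (minus strand), motif at position -15: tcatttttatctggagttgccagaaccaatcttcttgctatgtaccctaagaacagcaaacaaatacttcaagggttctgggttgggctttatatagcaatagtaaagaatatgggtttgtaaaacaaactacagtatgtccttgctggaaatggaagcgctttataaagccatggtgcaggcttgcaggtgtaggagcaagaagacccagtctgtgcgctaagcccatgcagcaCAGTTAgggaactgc
Ldhc, chr7:46861013-46861262 (plus strand), motif at position -28: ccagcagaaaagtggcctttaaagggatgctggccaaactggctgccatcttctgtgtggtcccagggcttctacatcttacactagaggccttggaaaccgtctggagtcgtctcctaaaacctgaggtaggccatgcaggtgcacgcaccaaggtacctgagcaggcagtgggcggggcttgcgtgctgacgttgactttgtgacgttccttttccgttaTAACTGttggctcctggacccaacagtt
Zpbp2, chr11:98550847-98551096 (plus strand), motif at position -59: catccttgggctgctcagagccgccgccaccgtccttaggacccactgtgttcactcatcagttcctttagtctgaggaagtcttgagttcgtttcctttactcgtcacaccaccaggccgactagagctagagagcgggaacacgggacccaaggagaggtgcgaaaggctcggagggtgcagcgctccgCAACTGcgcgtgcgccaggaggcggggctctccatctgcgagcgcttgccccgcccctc
Catsper2, chr2:121413793-121414042 (minus strand), motif at position -44: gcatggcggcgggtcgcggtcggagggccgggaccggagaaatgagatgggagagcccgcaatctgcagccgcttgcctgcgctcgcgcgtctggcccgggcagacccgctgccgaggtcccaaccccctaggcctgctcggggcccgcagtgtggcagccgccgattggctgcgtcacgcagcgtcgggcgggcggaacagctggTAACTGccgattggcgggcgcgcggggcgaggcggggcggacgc
In Ldhal6b the core is read on the opposite strand. All 4 genes were at least 65.1-fold higher in the later cells.

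Probe sets of one gene on different designs gave a measure of how far single values can be trusted. Of 6742 pairs of probe sets of a gene on 2 designs with both over the floor, 1900 had at least 1 probe set with a 2-fold gap. In 314 of these, or 16.5%, both probe sets had it in the same direction, in 169, or 8.89%, the signs were opposite, and in 21 both had a 2-fold gap in opposite directions. Among pairs in which each probe set reached 4 floors on its brightest array, both had the same call in 227 of 720, or 31.5%, and opposite calls in 13. Several named genes had at least 1 other probe set over the floor, but none with the call of the one used. Among them were Foxo1, Dazl, E2f3, Mki67, Suz12, Eln, Nr4a1, Dnmt3a, Tbpl1, Brdt, Odf2, Acr, Tnp2, Clgn, Prps1l1, Ppp3r1 and Tbp.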

How the data were processed

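The authors deposited 1 table of MAS5 signals per array, on a linear intensity scale, per the submitters' processing notes, which give no version. Every array had a 2% trimmed mean between 125.0 and 125.1. Arrays of a design were brought to the geometric mean of their trimmed means, values under 0.4 of it were raised to that floor, and log2 was taken. Of 228 negative control readings 22 exceeded the floor, the highest at 103.5, so levels near it cannot be separated from background. In spermatogonia 51.2% to 61.1% of probe sets exceeded the floor, and in the later cells 45.8% to 50.2%. The number of arrays, 2 per side and design, limits the precision. Of 36701 probe sets, 29131 had a single symbol and 29044 matched RefSeq (GRCm38.p6). RNA came from whole preparations, so fewer cells of a type and less RNA per cell cannot be told apart.

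Genes were named by rules: in each direction the 10 largest gaps over the floor on all 4 arrays, the 10 largest with the low side at the floor, 5 with agreeing probe sets on at least 2 designs, up to 5 members of each list by gap, and the listed pairs. Others were named after their values were seen. The comparison, the 18 gene lists, the 10 marker lists and the pairs were chosen with earlier results of these data known. limma 3.58.1 (R 4.3.3), taking the 2 cell types of a side as its spread, was an alternative only. Other alternatives changed the floor, scaling, probe set, rule or arrays used (Python 3.11.15, pandas 2.3.3, numpy 2.4.6).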

Additional observations from a re-analysis of the deposited data

How the results depend on the processing

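No paired analysis was possible because each cell type has 1 array in a design and carries the replicate number 1 only. The counts of genes higher in spermatogonia and in the later cells were 1628 and 1173. The spermatogonial count was 836 with median scaling, 835 with spike-in scaling, 1077 with a floor of 0.8 of the trimmed mean, 436 with the second probe set of a gene and 844 on U74Av2 alone, where the number of genes is smaller, and the later count was 326 and 487 in the last 2. By other rules they were 311 and 577 at 4-fold, 5129 and 2753 for any gap, 2854 and 1988 for side means 2-fold apart, and 954 and 768 with limma at an adjusted p-value of 0.05. Leaving out 1 cell type gave 2116 to 2655 and 1377 to 1885, since a gap over fewer arrays is reached more easily. The share of X-linked genes higher in spermatogonia, 33.0%, was 27.7% with the higher floor, 19.7% with median scaling, 20.8% with spike-in scaling, 28.01% with quantile normalization, 24.9% with the mean over probe sets, 22.6% with the second probe set, 38.2% on U74Av2, 6.85% at 4-fold, 67.01% for any gap, 47.2% for side means, and 39.1% to 46.6% leaving out a cell type. In each of these it exceeded the autosomal share, by 1.73 to 3.49 times.

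Agreement between probe sets of a gene, 16.5%, was 31.5% for probe sets of at least 4 floors, an alternative chosen after seeing the data. Of 147 named genes with a 2-fold gap, 90 kept it in every alternative that could be run on them. Gaps (log2) with the opposite sign under the second probe set were 0.0346 for Col1a2, -0.0014 for Ndufc1, -0.171 for Pabpc1, -0.34 for Ppp3r2, -0.306 for Prm1, 0.0695 for Rps4x, -0.0236 for Tdrd7 and 0.288 for Zfp36l2, and under median scaling 0.43 for Foxo1. The median of sperm chromatin was -0.14 with the second probe set, and that of RNA-binding genes ran from -0.0026 to 1.57 leaving out a cell type. The cause was not tested.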

Other observations

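Genes were also grouped by the letters with which their symbols begin, for all 155 such stems with at least 10 measured genes, and some stems are given as a description, chosen after the values were seen. The choice is partial: stems not described include Spata with 7 of 17 genes on the meiotic and haploid side, and Abca with 4 of 10, Fkbp with 4 of 12 and Tspan with 4 of 13 on the spermatogonial side. Of all genes, 9.02% were higher in the later cells and 12.5% in spermatogonia. The stem with the highest share on the meiotic and haploid side was Cfap, genes of cilia and flagella, with 13 of 18 at least 2-fold higher there and 0 in spermatogonia. Cfap69 read 296 in type A and 320.5 in type B spermatogonia and 4232 in pachytene spermatocytes and 4371 in round spermatids, a gap of 13.2-fold, and Cfap97 86.5, 16.5, 4879.8 and 3202 in the order type A, type B, pachytene and round spermatid, a gap of 37-fold. Of the Ift genes, which code for the intraflagellar transport trains that build cilia, 7 of 14 were higher in the later cells and 0 in spermatogonia. Their gaps were smaller, from 2.4-fold for Ift74 to 5.3-fold for Ift22, and all of them were well over the floor in spermatogonia. Of the Ttll genes, whose enzymes add glutamate or glycine to tubulin, 5 of 11 were higher in the later cells, Ttll8 with at least 19.5-fold, and 2 in spermatogonia, Ttll12 with at least 4.8-fold and Ttll11 with 4.13-fold. The coiled-coil stem Ccdc had 24 of 87 genes on the later side and 3 on the other.

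On the spermatogonial side, 6 of 15 Klf genes, zinc finger transcription factors, were higher in spermatogonia and 1 in the later cells. For this stem and those that follow, the shares of all genes were 12.5% and 9.02%. Klf6 read 407, 654, 68.4 and 33.7 in the order type A, type B, pachytene and round spermatid, a gap of 5.96-fold. Of 15 Kdm genes, histone demethylases, 4 were higher in spermatogonia and 0 in the later cells, with Kdm6b at at least 5.44-fold. Of 14 Snhg genes, which host small nucleolar RNAs in their introns, 5 were higher in spermatogonia and 0 in the later cells, and Snhg1 read 320.1, 406, 70.0 and 69.9, a gap of 4.57-fold. Of 32 Col genes, collagens, 11 were higher in spermatogonia and 1 in the later cells. Col1a1, Col1a2 and Col3a1 are themselves among the myoid and fibroblast markers given above, so this count is not separate from those markers. The part of fibroblasts in it was not tested.

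Genes that still carry the name of a cDNA clone were common on the later side. RIKEN clone names made up 4.10% of all measured genes, 1.60% of those higher in spermatogonia and 8.27% of those higher in the later cells, and names from testis libraries 1.93%, 0.123% and 6.48%. Of 3810 probe sets over the floor with no gene symbol, 217 (5.70%) were higher in spermatogonia and 82 (2.15%) in the later cells, both under the shares of all 25149 probe sets over the floor, 9.98% and 6.90%.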
